A study of Mus musculus with 16 samples.

Results

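The genes described here are 37 coagulation and complement genes of the liver, taken by symbol from a table of 55291 mouse genes. All 37 were found, and all 37 had enough reads to be tested, among 17831 genes in livers and 18193 genes when tumours were included. Polyadenylated RNA of whole liver and of isolated liver tumours was sequenced in 8 groups of 2 biological replicates. Livers labelled WT and Arid1a KO were taken 9 or 30 days after tamoxifen with DMSO as the vehicle, and livers labelled Arid1a/b DKO were taken at 9 days, also with DMSO. Further livers labelled WT and Arid1a KO at 30 days had received a compound that the labels spell as an NR1L3 agonist and shorten to TC. The titles of the WT agonist livers say 9 days where their other labels say 30. For the tumours the labels give the genotype Arid1a KO/BcatEXON, with neither a time nor a treatment. ARID1A and ARID1B replace each other in BAF, a complex that moves nucleosomes along DNA. The WT sample names begin with ALB. The sources used here do not state the promoter driving the recombinase, the animals behind each tumour or the age of the mice.

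The library totals ran from 7569779 to 47768610 counts, and replicate 1 had the lower total in all 8 groups. Levels below are in CPM, the count of a gene relative to the total of its library, with library totals scaled by TMM factors (trimmed mean of M values) over the 16 libraries, and the 2 values of a group are given in the order replicate 1, replicate 2. The lowest count of any of the 37 genes in any library was 153. Arid1a stood at 72.2 to 105 CPM in the 6 livers labelled WT, 68.65 to 95.3 CPM in the 6 labelled Arid1a KO, and 90.6 and 103 CPM in those labelled Arid1a/b DKO. Counts over the whole gene do not single out a deleted exon, so this value does not check the Arid1a labels. Arid1b was at 24.5 and 25.7 CPM in DKO livers and at 38.1 and 52.8 CPM in WT livers at 9 days, a log2 difference of -0.85 (SE 0.28, adjusted p = 0.0439). The labels call the cells hepatocytes while the series describes whole tissue. All 15 hepatocyte markers had counts in every group, and so did the markers of macrophages, endothelial, stellate and bile duct cells, apart from Cldn4 in WT agonist livers. In such bulk samples, fewer cells of a type and less RNA per cell cannot be told apart.

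Hepatocytes make most of the proteins of blood clotting and of the complement system and secrete them into plasma. Clotting runs through proteases that activate one another until thrombin turns fibrinogen into fibrin, while inhibitors and plasmin limit and dissolve the clot. Complement is started by antibody, by sugars bound to lectins, or by slow activation of C3, and ends with a pore built from its terminal components. Many of these genes are transcribed from promoters bound by hepatocyte nuclear factors and C/EBP proteins, and several, fibrinogen among them, belong to the acute phase response driven through STAT3.

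In WT livers at 9 days, levels per kilobase of exon put C3 and fibrinogen first. The length used was that of all annotated exons of a gene, merged. It can exceed the length of the transcript in use, which lowers the level, so the order depends on it. The longest were Masp1 (9833 bases) and Serpinc1 (8546 bases). C3, the central complement protein, stood highest at a mean of 1967 CPM per kilobase (libraries 1933 and 2001). Next came the fibrinogen chain genes Fgg (mean 1065), Fga (925.7) and Fgb (673.1), then the kininogen gene Kng1 (670.0). The ranges of Fgg and Fga overlapped, as did those of Fgb and Kng1. At the other end, C2 (24.6), Masp1 (25.6) and Pros1 (26.2) did not differ beyond their spread. In all, the 37 genes took 4.15% and 4.33% of the counts in WT livers at 9 days, 3.63% and 3.46% in DKO livers and 2.88% and 3.22% in tumours.

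**Figure D1:**
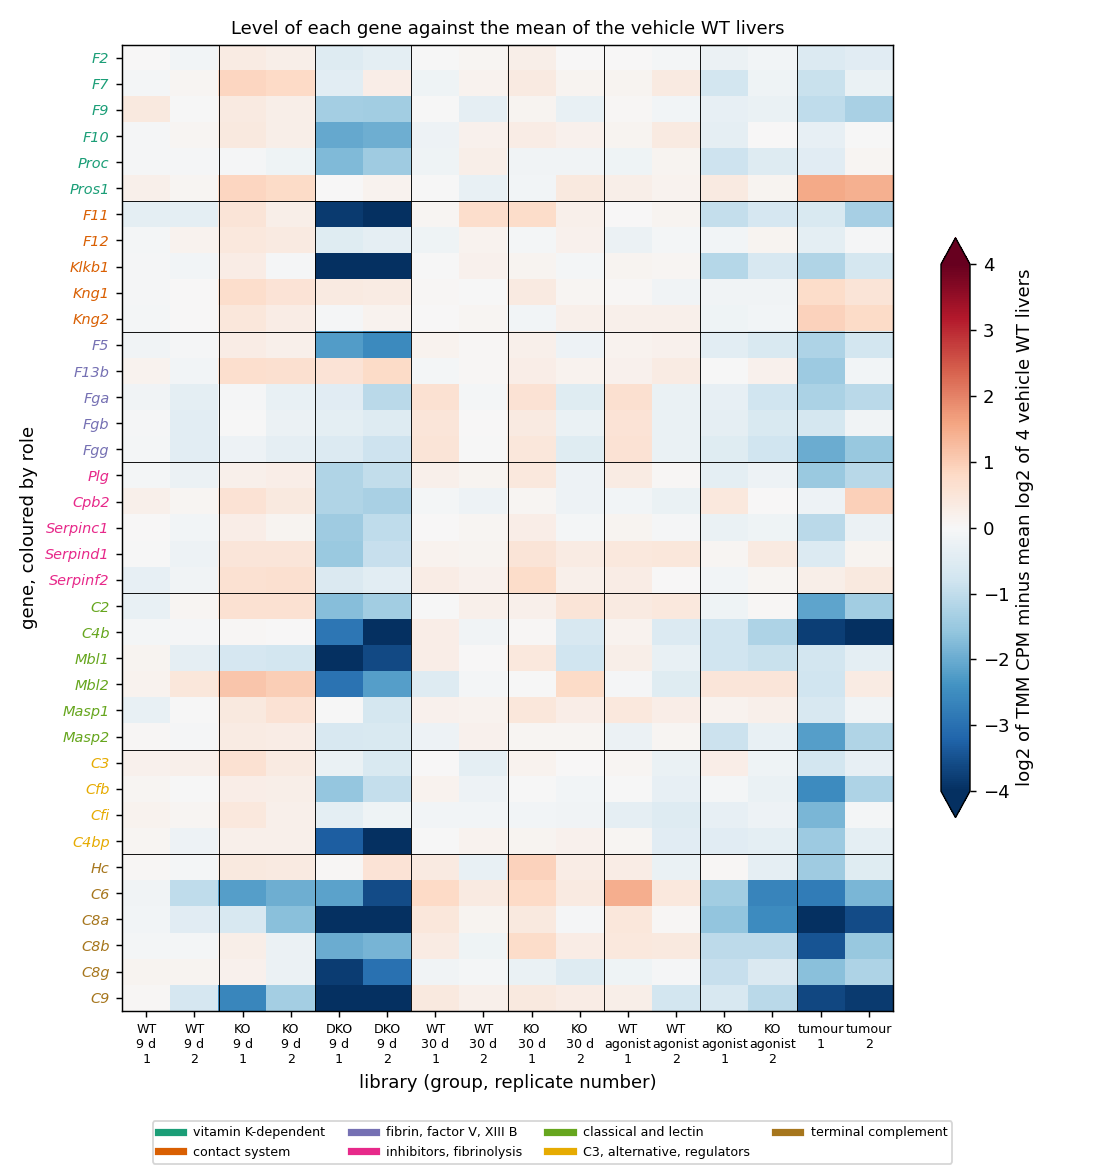
Level of each of the 37 genes in each of the 16 libraries, as log2 of TMM CPM minus the mean of the 4 vehicle WT livers, with genes grouped by role and libraries by group. Colours saturate at 4 log2 units in either direction; the DKO columns and the tumour columns hold most of the blue cells, and Pros1, Kng1 and Kng2 are red in the tumours.

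Livers labelled Arid1a/b DKO had low levels of many of these genes. Compared with WT livers at 9 days, 21 of the 37 genes fell and 1 rose in edgeR's quasi-likelihood F test with Benjamini-Hochberg adjustment over all genes (adjusted p under 0.05). Of all 17831 genes, 13.8% were called lower and 12.6% higher in that comparison. The median log2 difference was -1.16 over the 37 genes and 0.01 over all genes tested. Their summed level was 45050 and 42400 CPM in WT livers and 27770 and 26520 CPM in DKO livers. These sums depend on the TMM factors, 0.9219 and 1.021 in WT and 1.307 in both DKO libraries. As a share of unscaled counts, the 37 genes took 4.15% and 4.33% in WT and 3.63% and 3.46% in DKO livers. With scaling on total counts, the median log2 difference was -0.73 over the 37 genes and 0.43 over all genes. For 23 genes both DKO libraries lay below all 12 other livers, and the share of all genes with that order was not counted. Of the 22 calls, 18 remained under each of the 10 other settings tried, and those of F13b, Plg, Serpind1 and C6 did not. Against livers labelled Arid1a KO at 9 days, 29 of the 37 genes were lower in DKO livers and none was higher, where 12.1% of all genes were called lower. That count fell to 20 without KO replicate 2. Both comparisons share the DKO libraries.

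The hepatocyte markers moved in the same comparison, and the part of this in the 37 genes was not tested. Of 15 hepatocyte markers 10 fell, with a median log2 difference of -1.05, and their summed level was 38340 to 69900 CPM in WT and 26380 to 26990 CPM in DKO livers at 9 days. Of 12 markers of stellate cells and fibroblasts 7 rose, and their sum was 346.9 to 438.7 CPM in WT and 1227 to 2570 CPM in DKO livers. Of 14 macrophage markers 2 rose, Cd68 and Gpnmb, and their sum was 981.5 to 1820 CPM in WT and 2266 to 3978 CPM in DKO livers. Of 10 bile duct markers 4 rose and of 12 endothelial markers 2 rose. No marker of these 5 lists was at 0 in both libraries of either group. The marker sums carry the same TMM factors as the sum of the 37 genes.

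**Figure D2:**
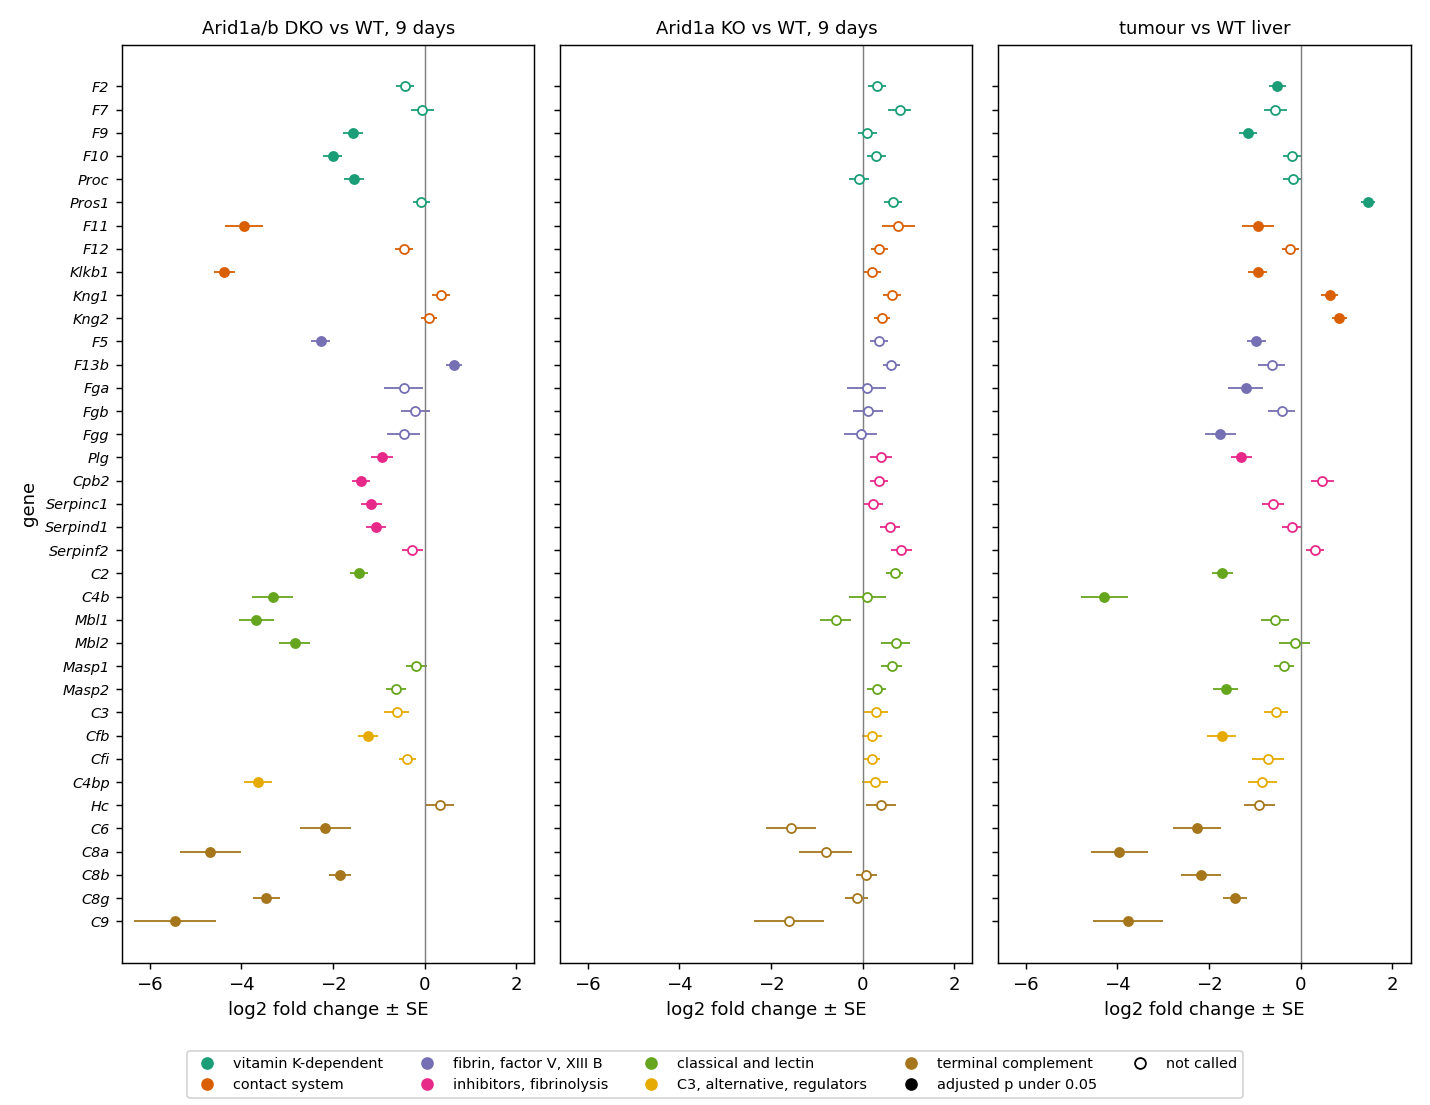
Log2 fold change with its SE for each of the 37 genes in 3 comparisons, coloured by role, with filled points for an adjusted p under 0.05. In the DKO panel the filled points reach from 0.65 (F13b) to -5.44 (C9), the Arid1a KO panel has none, and in the tumour panel Pros1, Kng1 and Kng2 are filled to the right of 0.

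Promoters are shown for genes in which a short motif known for liver factors lay close to the start and whose levels differed in response, and for Fgb and Fgg, the fibrinogen genes with the STAT3 motif in their window. RefSeq windows of 250 bases before the start (GRCm38.p6) were found for 29 of the 37 genes. The motifs searched on both strands were GTTAATNAT (HNF1 core), CAAAGTCCA (HNF4 core), TTGCNNAA (C/EBP core) and CTGGGAA (STAT3 type II). The HNF1 core was found in 4 of 29 windows (13.8%) and in 0.866% of the windows of 27025 genes. The C/EBP core was in 8 (27.6%, against 10.8%), the STAT3 motif in 4 (13.8%, against 10.4%) and the HNF4 core in none (against 0.451%). A match is a run of letters and no measured site. C4bp and Hc carry the HNF1 core, at 64 to 56 and 77 to 69 bases before the RefSeq start. Their GENCODE genes begin 14 and 26 bases before that start. The stretches, written 5′ to 3′ on the strand of the gene with the match in capitals, lie at chr1:130661633-130661758 and chr2:35061439-35061552, both on the minus strand, and end where the GENCODE gene begins.
C4bp: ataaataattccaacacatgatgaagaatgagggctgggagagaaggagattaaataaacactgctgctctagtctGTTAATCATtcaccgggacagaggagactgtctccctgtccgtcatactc
Hc: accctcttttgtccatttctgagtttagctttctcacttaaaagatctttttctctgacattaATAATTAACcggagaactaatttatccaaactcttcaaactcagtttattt
In DKO livers C4bp fell 12.4-fold and Hc was not called (log2 0.33, SE 0.33, adjusted p = 0.487).

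F11, C9 and C3 carry the C/EBP core. Their stretches lie at chr8:45262032-45262171 (minus strand), chr15:6445206-6445326 (plus strand) and chr17:57228137-57228276 (minus strand) of the same build.
F11: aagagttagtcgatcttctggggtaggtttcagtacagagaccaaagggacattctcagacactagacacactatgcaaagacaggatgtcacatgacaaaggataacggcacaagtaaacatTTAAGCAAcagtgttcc
C9: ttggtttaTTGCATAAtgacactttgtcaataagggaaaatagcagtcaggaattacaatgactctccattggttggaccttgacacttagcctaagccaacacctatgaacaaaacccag
C3: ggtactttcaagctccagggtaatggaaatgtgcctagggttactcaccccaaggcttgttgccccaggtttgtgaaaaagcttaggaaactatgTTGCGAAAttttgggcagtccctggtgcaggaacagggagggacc
F11 fell 15.4-fold and C9 43.5-fold in DKO livers, while C3 was not called (log2 -0.61, SE 0.28, adjusted p = 0.126). The F11 and C3 matches lie 17 to 10 and 45 to 38 bases before the RefSeq start. That of C9 lies 132 to 125 bases before its RefSeq start. The C9 stretch ends where the GENCODE gene begins, 19 bases before the RefSeq start.

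Of the 6 genes of vitamin K-dependent proteins 3 fell in DKO livers. F10, whose product activates prothrombin, was at 567 and 620.6 CPM in WT and at 142.7 and 151.5 CPM in DKO livers at 9 days. It fell by 2.01 on the log2 scale (SE 0.21, adjusted p = 0.000161). F9, whose loss causes haemophilia, was at 359.5 and 270.2 CPM in WT and at 107.6 and 104.8 CPM in DKO livers, and fell 2.95-fold. Proc, the precursor of the anticoagulant activated protein C, was at 776.2 and 788.9 CPM in WT and at 238.7 and 301.5 CPM in DKO livers, and fell 2.89-fold. The DKO libraries lay below all other livers for these 3 genes. F2, which encodes prothrombin, was at 2152 and 1975 CPM in WT and at 1469 and 1604 CPM in DKO livers (adjusted p = 0.127). F7, which starts clotting with tissue factor, was at 175.2 and 194.3 CPM in WT and at 136.1 and 220.1 CPM in DKO livers, which overlap. Pros1, the cofactor of activated protein C, was at 111.7 and 102.5 CPM in WT and at 98.4 and 105.6 CPM in DKO livers, which overlap as well. F7 and F10 are neighbours on the plus strand of chromosome 8, F7 at 13026034 to 13035809 and F10 at 13037308 to 13056676 (GRCm38), with 1498 bases between them.

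In tumours 1 of these 6 genes rose and 2 fell. Pros1 was at 278.5 and 258 CPM in tumours, above all 14 livers, which reached 174 CPM at most. It rose by 1.47 (log2, SE 0.16, adjusted p = 5.52e-05) against the 4 vehicle WT livers. F9 was at 135.7 and 112.2 CPM and fell 2.23-fold. F10 (465.1 and 577.6 CPM) and Proc (594.9 and 845 CPM) were not called in tumours. F2, at 1444 and 1547 CPM, fell 1.42-fold (adjusted p = 0.0449), a call that remained in 3 of 14 other settings and was lost without either tumour, either 9-day WT library or 30-day WT replicate 2.

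Of the 5 contact system genes 2 fell in DKO livers, both by large amounts. Klkb1 encodes plasma prekallikrein, which cleaves kininogen to release bradykinin. It was at 280.3 and 265.6 CPM in WT and at 12.88 and 13.42 CPM in DKO livers at 9 days. This is a fall of 4.37 on the log2 scale (SE 0.23, adjusted p = 4.57e-06), or 20.7-fold. F11, the factor XI gene, was at 125.7 and 126.9 CPM in WT and at 11.7 and 4.70 CPM in DKO livers. The 2 genes lie next to each other on the minus strand of chromosome 8, F11 at 45241174 to 45262031 and Klkb1 at 45266689 to 45294859. For neither gene did any DKO library come near the lowest other liver, which had 132.6 CPM of Klkb1 and 85.9 CPM of F11. F12, whose product activates prekallikrein and factor XI, was at 727.5 and 845.5 CPM in WT and at 552.4 and 601.9 CPM in DKO livers (adjusted p = 0.117). Kng1, the kininogen that carries bradykinin, was at 2123 and 2232 CPM in WT and at 2856 and 2749 CPM in DKO livers. The groups do not overlap, yet the difference of 0.37 (log2, SE 0.20) had an adjusted p = 0.193. Kng2 was at 377.2 and 401.8 CPM in WT and at 390.1 and 443.3 CPM in DKO livers. Kng1 and Kng2 are similar copies on chromosome 16, and the handling of reads shared by both is not stated in the sources used here.

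In tumours 2 of the 5 contact system genes fell and 2 rose. Klkb1 was at 126.1 and 176.7 CPM in tumours and fell 1.91-fold against WT livers (adjusted p = 0.00393). F11 was at 109.2 and 66.6 CPM and also fell 1.91-fold (adjusted p = 0.0498), a call kept in 6 of 14 other settings and lost without tumour replicate 2, either 9-day WT library or 30-day WT replicate 2. Kng2, at 766.9 and 678.8 CPM, stood above all 14 livers and rose 1.80-fold (adjusted p = 0.00158). Kng1, at 3709 and 3151 CPM, rose 1.55-fold (adjusted p = 0.0176), a call lost without tumour replicate 1. In vehicle livers labelled Arid1a KO, Kng1 was at 3618 and 3223 CPM at 9 days, which overlap the tumours. At 30 days it was at 2815 and 2351 CPM in such livers.

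**Figure D3:**
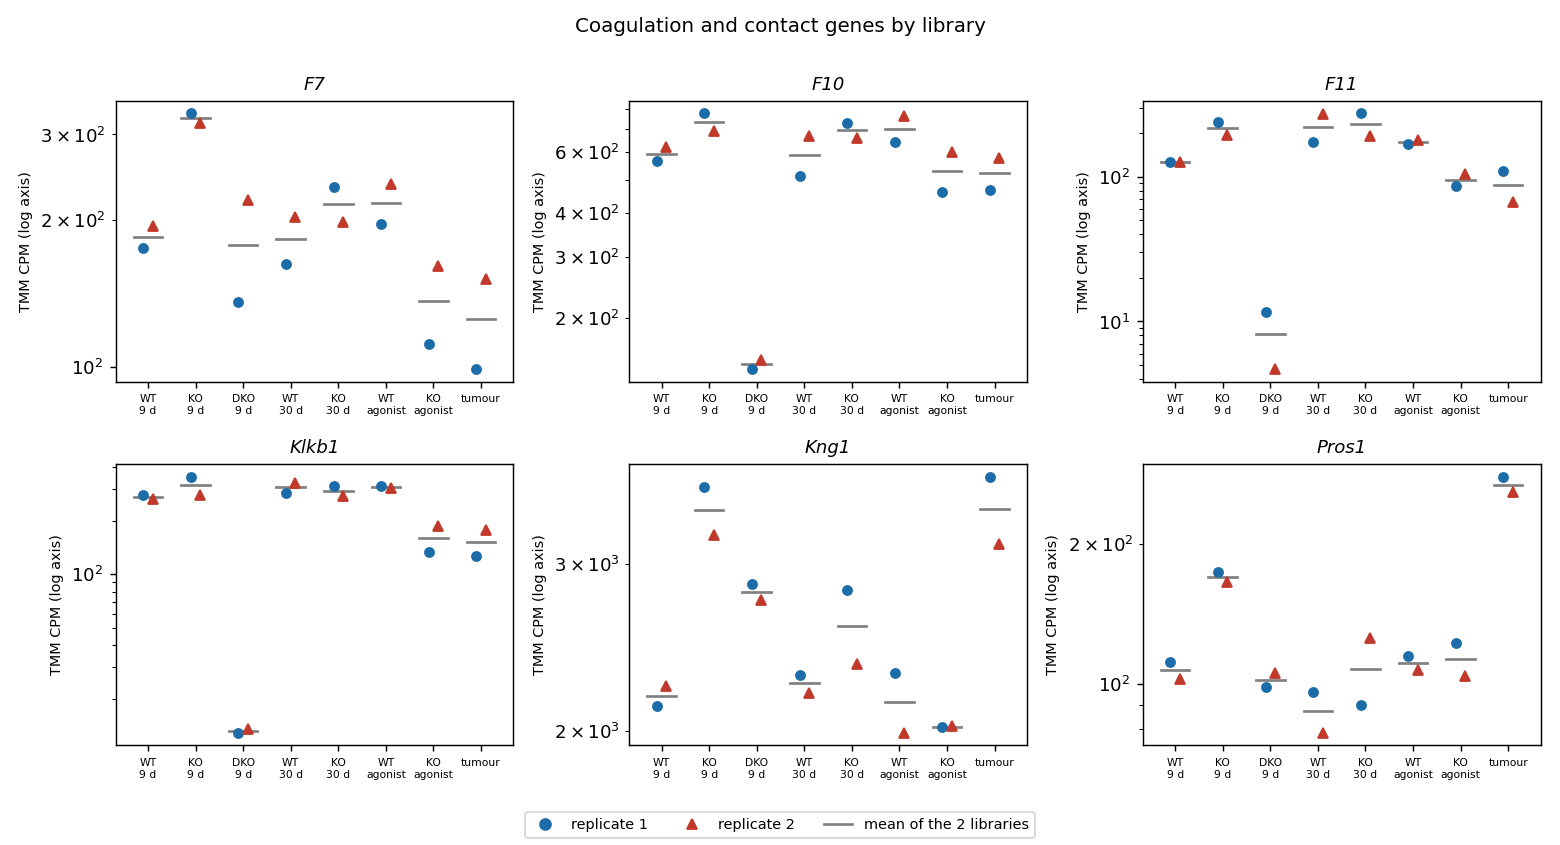
TMM CPM on a log axis of F7, F10, F11, Klkb1, Kng1 and Pros1 in the 16 libraries, with circles for replicate 1, triangles for replicate 2 and a grey line for the group mean. Klkb1 and F11 drop by more than a factor of 10 in the DKO libraries and by less in tumours, and the highest points of Pros1 are the 2 tumours.

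Of factor V, factor XIII and the fibrinogen chains, 1 gene fell and 1 rose in DKO livers. F5, the cofactor of factor X, was at 894.8 and 960 CPM in WT and at 213.2 and 171.3 CPM in DKO livers at 9 days, and fell 4.81-fold (adjusted p = 8.84e-05). In tumours it was at 422.8 and 598.7 CPM, 1.95-fold lower than in WT livers (adjusted p = 0.00403). F13b, the carrier subunit of the fibrin-linking factor XIII, was at 341.5 and 288.6 CPM in WT and at 453.2 and 530.5 CPM in DKO livers. It was the 1 gene that rose (log2 0.65, SE 0.18, adjusted p = 0.0222), and the call remained in 5 of 10 other settings, not without WT replicate 1, WT replicate 2 or DKO replicate 2. Livers labelled Arid1a KO at 9 days had F13b at 494.5 and 481.7 CPM, close to the DKO livers.

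Fga, Fgb and Fgg encode the 3 chains of fibrinogen and lie within 1 cluster on chromosome 3, Fgg at 83007724 to 83015049, Fga at 83026076 to 83033627 and Fgb at 83040141 to 83049863. None was called in DKO livers. Fga was at 3024 and 2549 CPM in WT and at 2463 and 1594 CPM in DKO livers, Fgb at 2889 and 2240 against 2321 and 2127 CPM, and Fgg at 2504 and 1955 against 1781 and 1458 CPM. In all 7 liver groups replicate 1 was above replicate 2 for each chain. Cpb2 and C8a were the only other genes of the 37 with that order in all 7 groups, and the share of all genes with it was not counted. For Fga the gap was widest in 3 of the 4 groups at 30 days, with 5151 and 3172 CPM in WT vehicle, 5033 and 2403 CPM in KO vehicle and 5233 and 2769 CPM in WT agonist livers. In KO agonist livers Fga was at 2657 and 1925 CPM. Replicate 1 also had the lower total count in each group, and whether depth or animals set this order was not tested. In tumours the order was reversed. Fgg was at 661 and 914.6 CPM there and fell 3.36-fold against WT livers (adjusted p = 0.00237), Fga was at 1390 and 1573 CPM and fell 2.30-fold (adjusted p = 0.0265, lost without either tumour or 30-day WT replicate 1), and Fgb was at 1854 and 2734 CPM and was not called. The windows of Fgb and Fgg hold the STAT3 motif 91 to 85 and 13 to 7 bases before the start, and those of F9 and Masp2 hold it too. Fgb also holds the C/EBP core 80 to 73 bases before it, with no overlap. The stretches lie at chr3:83049864-83050003 (minus strand) and chr3:83007584-83007723 (plus strand).
Fgb: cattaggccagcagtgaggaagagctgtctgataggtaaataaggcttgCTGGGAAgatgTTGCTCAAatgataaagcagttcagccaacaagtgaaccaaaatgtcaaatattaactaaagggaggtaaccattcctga
Fgg: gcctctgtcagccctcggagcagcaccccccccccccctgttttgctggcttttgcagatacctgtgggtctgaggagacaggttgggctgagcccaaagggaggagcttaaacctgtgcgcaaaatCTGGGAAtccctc

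**Figure D4:**
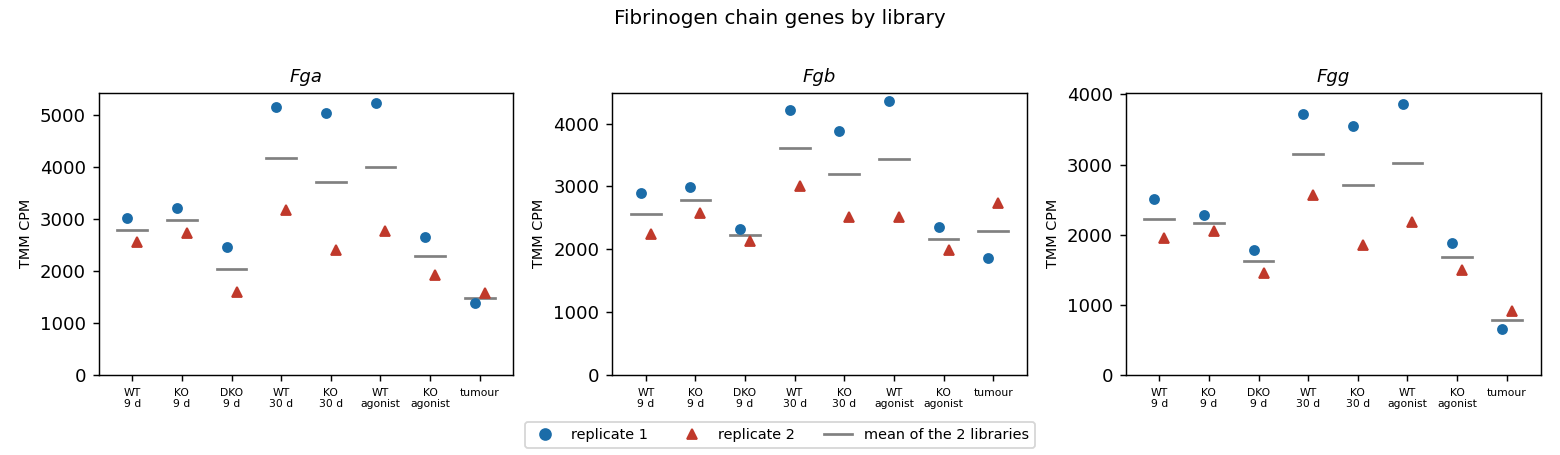
TMM CPM of Fga, Fgb and Fgg in the 16 libraries on a linear axis from 0, with circles for replicate 1, triangles for replicate 2 and a grey line for the group mean. The circle is above the triangle in all 7 liver groups, most widely in the WT vehicle, KO vehicle and WT agonist livers at 30 days, and below it in tumours.

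Of the 5 genes of inhibitors and the plasmin system 4 fell in DKO livers. Serpinc1, the antithrombin gene, was at 2271 and 2075 CPM in WT and at 827.9 and 1114 CPM in DKO livers at 9 days, and fell 2.23-fold (adjusted p = 0.00425). Cpb2, whose product protects fibrin from lysis, was at 631.1 and 572.4 CPM in WT and at 236.5 and 222.9 CPM in DKO livers, and fell 2.61-fold. Serpind1, heparin cofactor II, was at 722.4 and 636.1 CPM in WT and at 259.9 and 390.3 CPM in DKO livers, and fell 2.08-fold, a call lost without WT replicate 1. Plg, the plasminogen gene, was at 2382 and 2119 CPM in WT and at 1083 and 1279 CPM in DKO livers, and fell 1.90-fold (adjusted p = 0.0189), a call lost without WT replicate 1 or DKO replicate 1. All DKO libraries were below the WT libraries for these 4 genes. Serpinf2, the plasmin inhibitor gene, was at 780.8 and 904.1 CPM in WT and at 659 and 741.1 CPM in DKO livers (adjusted p = 0.408). In tumours Plg was the 1 gene of this role that passed the test, at 891 and 1159 CPM and 2.45-fold lower than in WT livers (adjusted p = 0.00151). Cpb2 was at 474.9 and 1041 CPM in tumours, the second value above all 14 livers.

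Of the 6 genes of the classical and lectin pathways 4 fell in DKO livers. Mbl1, a mannose-binding lectin, was at 252.3 and 183.3 CPM in WT and at 14.7 and 19.2 CPM in DKO livers at 9 days, and fell by 3.68 on the log2 scale (SE 0.38, adjusted p = 0.00014). Mbl2, the second such lectin, was at 556 and 687.6 CPM in WT and at 65.4 and 108.6 CPM in DKO livers, and fell 7.13-fold. C4b, whose product is cleaved by both pathways, was at 2213 and 2236 CPM in WT and at 313.2 and 130.8 CPM in DKO livers, and fell 9.98-fold (adjusted p = 0.000553). C2, the protease that joins C4b, was at 82.7 and 107.9 CPM in WT and at 31.3 and 39.0 CPM in DKO livers, and fell 2.7-fold. The proteases that ride on the lectins were not called: Masp1 was at 229.3 and 273.7 CPM in WT and at 273.6 and 169.9 CPM in DKO livers, and Masp2 at 295.5 and 275.1 against 183.3 and 185.9 CPM (adjusted p = 0.0514). Masp2 was called under DESeq2.

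In tumours C4b, C2 and Masp2 fell. C4b was at 170.3 and 69.2 CPM and fell 19.5-fold against WT livers (adjusted p = 0.000103), C2 was at 23.8 and 38.6 CPM and fell 3.27-fold, and Masp2 was at 61.4 and 122.7 CPM and fell 3.10-fold. Mbl1 (141.3 and 181.5 CPM) and Mbl2 (291.3 and 635.6 CPM) were not called there. C4b has a close copy, C4a, and reads shared by the 2 genes make each count uncertain. C4a, looked up after its values were seen, was at 208.7 and 111.7 CPM in WT livers at 9 days, 25.8 and 7.62 CPM in KO livers, 2.53 and 1.09 CPM in DKO livers and 3.40 and 2.63 CPM in tumours. C2 and Cfb lie 85 bases apart on chromosome 17, and a readthrough gene that spans both, Gm20547, had at most 1 count in any library. Gm45753, which overlaps Klkb1, had at most 5. The handling of reads that fit both gene models is not stated, so the levels of C2, Cfb and Klkb1 are uncertain. The gene models of 11 of the 37 genes overlap a gene on the other strand, among them C8g, C2, Masp2 and Hc, and whether the counting used strand is not stated in the sources used here.

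Of the 4 central components 2 fell in DKO livers. C3 was at 9939 and 10290 CPM in WT and at 7354 and 5863 CPM in DKO livers at 9 days, and was called in neither the DKO nor the tumour comparison with WT. Cfb, the protease of the alternative pathway, was at 110 and 102.9 CPM in WT and at 35.5 and 54.2 CPM in DKO livers, and fell 2.36-fold (adjusted p = 0.00251). In tumours it was at 18.15 and 44.7 CPM and fell 3.30-fold. Cfi, the protease that inactivates C3b and C4b, was at 1102 and 1048 CPM in WT and at 758.1 and 894.4 CPM in DKO livers (adjusted p = 0.146). C4bp, its cofactor, was at 811.3 and 660 CPM in WT and at 77.1 and 40.9 CPM in DKO livers, and fell by 3.64 on the log2 scale (SE 0.32, adjusted p = 5.6e-05). In tumours C4bp was at 277.4 and 576.3 CPM, below the 4 vehicle WT livers, with an adjusted p = 0.0558.

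Of the 6 terminal components, which build the membrane pore, 5 fell in DKO livers, among them C9 with the largest fall of the 37 genes. C9, which forms the ring of the pore, was at 674.2 and 410.3 CPM in WT and at 22.4 and 2.45 CPM in DKO livers at 9 days. It fell by 5.44 on the log2 scale (SE 0.90, adjusted p = 0.00192), and the 2 DKO libraries themselves differed widely. C8a was at 1103 and 852.9 CPM in WT and at 61.8 and 14.2 CPM in DKO livers, and fell 25.7-fold. C8g, the third chain of C8, was at 543.5 and 544.7 CPM in WT and at 36.0 and 63.0 CPM in DKO livers, and fell 11-fold. C8b was at 623.7 and 625.4 CPM in WT and at 167.2 and 179 CPM in DKO livers, and fell 3.60-fold. C8b and C8a are neighbours on chromosome 4, C8b at 104766317 to 104804548 and C8a at 104815679 to 104876398. C6 was at 292.4 and 161.4 CPM in WT and at 73.8 and 27.0 CPM in DKO livers, and fell 4.48-fold (adjusted p = 0.0173). The C6 call was lost without DKO replicate 2 or WT replicate 1. At 9 days C6 was at 70.5 and 83.4 CPM in livers labelled Arid1a KO, which overlap the DKO livers. Hc, the C5 gene that starts the terminal pathway, was at 2009 and 1819 CPM in WT and at 1986 and 2805 CPM in DKO livers, which overlap.

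C6, C8a, C8b, C8g and C9 also fell in tumours, in a comparison that shares the 9-day WT livers. C8a was at 55.1 and 97.7 CPM there, 15.5-fold lower than in WT livers (adjusted p = 0.000524), and C9 at 51.5 and 45.5 CPM, 13.6-fold lower (adjusted p = 0.0026). C6 was at 46.6 and 92.3 CPM (4.80-fold lower), C8b at 59.6 and 230.9 CPM (4.54-fold lower) and C8g at 159.5 and 213.3 CPM (2.7-fold lower). The C6 call was lost without tumour replicate 1 (adjusted p = 0.0625). Hc was at 725.5 and 1374 CPM, below all 14 livers, with an adjusted p = 0.0519.

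**Figure D5:**
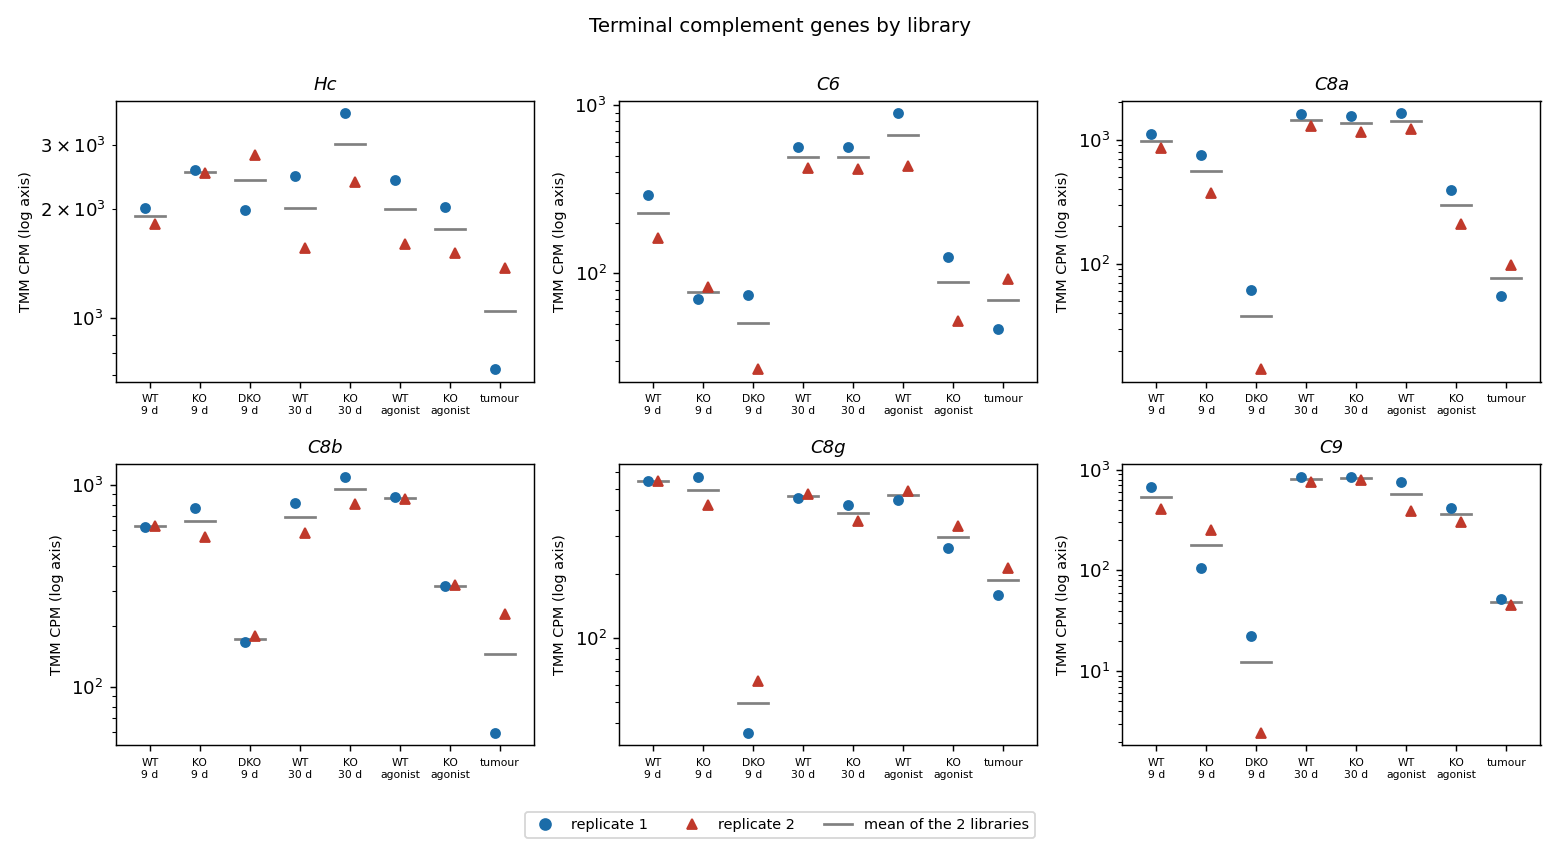
TMM CPM on log axes of the 6 terminal complement genes in the 16 libraries, with circles for replicate 1, triangles for replicate 2 and a grey line for the group mean. C8a, C8b, C8g and C9 are lowest in DKO livers or tumours, and Hc has no low DKO point. C6, C8a and C8b are also low in the KO agonist livers, and C6 and C9 in the KO vehicle livers at 9 days.

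Against the 4 vehicle WT livers, 17 of the 37 genes fell and 3 rose in tumours, where 16.1% of all 18193 genes were called lower and 20.5% higher. The median log2 difference was -0.71 over the 37 genes and 0.02 over all genes tested. The members' median was -0.40 without tumour replicate 1 and -1.13 without tumour replicate 2. Of the 20 calls, 15 remained in each of 14 other settings. Against the 4 vehicle livers labelled Arid1a KO, 24 genes fell and 2 rose, Pros1 and Kng2 (the Kng2 call was not kept in every setting), where 15.2% of all genes were called lower and 18% higher. Without tumour replicate 1 that total of 26 became 15. In TMM CPM, 30 of the 37 genes were lower in tumour replicate 1 than in replicate 2, Cfi for example at 279.1 and 940.4 CPM. The share of all genes with that order was not counted. It depends on the TMM factors, which were 1.172 in tumour replicate 1 and 0.9903 in replicate 2. As a share of unscaled counts, the 37 genes took 2.88% and 3.22%. Of 15 hepatocyte markers 2 rose (Ahsg, Asgr1) and 2 fell (Apob, Tdo2) in tumours against WT livers, with a median log2 difference of -0.30. Their summed level was 42150 to 46580 CPM in tumours and 38340 to 69900 CPM in vehicle WT livers. Of 11 tested endothelial markers 8 fell and 1 rose, with sums of 161.7 to 238.3 CPM in tumours and 353.8 to 610.8 CPM in vehicle WT livers. Of 9 tested bile duct markers 5 rose, with sums of 233.4 to 239.8 against 41.22 to 59.61 CPM. Most of each tumour sum came from Spp1 (110.2 and 53.72 CPM), Tspan8 (56.61 and 119.7 CPM) and Cldn7 (40.04 and 28.75 CPM). Krt19 was at 2.723 and 0.6569 CPM in tumours and at 1.135 to 3.7 CPM in vehicle WT livers. Krt7 was at 4.538 and 0.758 CPM against 1.952 to 2.419 CPM. Of 14 macrophage markers 5 fell and 3 rose, with sums of 653.3 to 741.3 against 271.8 to 1820 CPM. In addition, 4 of 6 tested erythroid and 2 of 7 tested neutrophil markers rose and 4 of 11 lymphocyte markers fell. The part of these markers in the result was not tested.

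Between livers labelled Arid1a KO and WT under vehicle, edgeR called none of the 37 genes at either time, and DESeq2 called 4 at 9 days. At 9 days 0 of the 37 genes were called by edgeR, where 0.566% of all genes were called in either direction, and 11 had an unadjusted p under 0.05, as had 10.6% of all genes. DESeq2 called Kng1, F13b, Serpinf2 and C2 higher, where it called 1.44% of 33901 genes in either direction. The estimates were positive for 30 of the 37 genes and for 8959 of all 17831. Serpinf2 was at 780.8 and 904.1 CPM in WT and at 1504 and 1534 CPM in KO livers (log2 0.85, SE 0.22, adjusted p = 0.145). C2 was at 82.7 and 107.9 against 153.6 and 155.7 CPM (adjusted p = 0.161). In both genes the groups did not overlap. Of the 7 genes with negative estimates, Mbl1, C6, C8a and C9 had both KO libraries below both WT libraries. Proc did so only barely, at 776.2 and 788.9 CPM in WT and at 775.6 and 712.2 CPM in KO livers. The share of all genes that separate in this way was not counted. C6 was at 70.5 and 83.4 CPM in KO livers (adjusted p = 0.309), C9 at 105.2 and 250.8 CPM (adjusted p = 0.504), C8a at 747.9 and 372.7 CPM (adjusted p = 0.745) and Mbl1 at 149.6 and 140.7 CPM (adjusted p = 0.635). At 30 days 0 genes were called by edgeR or DESeq2 (0.516% of all genes by edgeR and 1.2% by DESeq2), 1 had an unadjusted p under 0.05 (9.43% of all genes), and the median was 0.07. C6 was then at 562.6 and 421.2 CPM in WT and at 559.8 and 415.6 CPM in KO livers, and C9 at 847.3 and 753.9 against 846.6 and 799 CPM, both overlapping.

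Time alone called none of the 37 genes in edgeR. From 9 to 30 days in WT livers 0.0224% of all genes were called, with 1 of the 37, F11, at an unadjusted p under 0.05 (9.09% of all genes) and 0 called by DESeq2 (0.829%). In KO livers 0.0112% of all genes were called, with 8 of the 37 at an unadjusted p under 0.05 (6.9% of all genes) and 1, C6, called by DESeq2 (0.301%). C6 was 2.66 log2 units higher at 30 than at 9 days in KO livers (SE 0.57, adjusted p = 0.327). The test of whether the genotype difference changed with time called 0% of all genes and 0 of the 37, with 0 at an unadjusted p under 0.05 (1.81% of all genes) and 0 by DESeq2 (0.00295%). For C6 that difference was 1.55 (SE 0.76, adjusted p = 1).

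The agonist changed no gene of the 37 past the test in WT livers, and 1 in livers labelled Arid1a KO. In WT livers 0 of the 37 genes were called by edgeR or DESeq2 (0.028% of all genes by edgeR and 0.333% by DESeq2), none had an unadjusted p under 0.05 (3.66% of all genes), and the median was -0.01. In KO livers 1 gene, C8b, fell where 0.32% of all genes were called lower. C8b was at 1097 and 806.3 CPM with vehicle and at 317.8 and 319.1 CPM with agonist, 2.98-fold lower (log2 -1.58, SE 0.24, adjusted p = 0.0151). The call was lost without KO agonist replicate 1, KO agonist replicate 2 or KO vehicle replicate 1, and DESeq2 called F11, Klkb1, C6 and C8a as well (1.88% of 33901 genes in either direction). C6 was at 559.8 and 415.6 CPM with vehicle and at 125 and 52.1 CPM with agonist (adjusted p = 0.0816). C8a was at 1558 and 1148 CPM against 391.9 and 208 CPM (adjusted p = 0.143), and Klkb1 at 312.2 and 274.5 against 132.6 and 186.6 CPM (adjusted p = 0.0783). In each of these 4 genes the groups did not overlap, and the share of all genes that separate in this way was not counted. In all, 34 of the 37 estimates were negative, as were 9244 of all 17831, and their median was -0.43. Without KO vehicle replicate 1 that median was -0.25.

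Between the genotypes under agonist, 3 of the 37 genes were lower in KO than in WT livers, where 1.91% of all genes were called lower. C6 was at 890.4 and 432.6 CPM in WT agonist livers and 7.46-fold lower in KO (adjusted p = 0.0192). C8b was at 872.5 and 853.9 CPM in WT and 2.7-fold lower (adjusted p = 0.00991), and Klkb1 was at 312.5 and 305.9 CPM in WT and 1.93-fold lower (adjusted p = 0.0231). None of the 3 calls remained without KO agonist replicate 1 or without WT agonist replicate 2, 1 remained without WT agonist replicate 1 and 2 without KO agonist replicate 2. The test of the difference in agonist response called 0 of the 37 genes in edgeR (0.00561% of all genes), with 6 at an unadjusted p under 0.05 (5.58% of all genes), and DESeq2 called 2, C6 and C8b (0.372%). For C8b the difference was -1.88 (log2, SE 0.33, adjusted p = 0.159). The 15 hepatocyte markers summed to 34780 to 36900 CPM in KO agonist livers, 43990 to 61190 CPM in KO vehicle livers and 45280 to 54150 CPM in WT agonist livers. Macrophage markers summed to 1359 to 2068, 1003 to 1275 and 641.2 to 908.3 CPM in the same groups, and stellate and fibroblast markers to 577.4 to 1069, 396.7 to 728.6 and 361.7 to 362 CPM. Bile duct markers summed to 232.9 to 347.3, 95.98 to 274.7 and 40.7 to 51.01 CPM. Most of each sum came from 1 gene, Spp1. It was at 335 and 221.5 CPM in KO agonist, 85.58 and 263.6 CPM in KO vehicle and 43.15 and 34.18 CPM in WT agonist livers. Between the genotypes under agonist, 2 of 12 stellate, 1 of 9 tested bile duct and 1 of 14 macrophage markers were higher in KO livers, and 2 of 15 hepatocyte and 1 of 6 tested erythroid markers were lower. The part of these markers in the differences was not tested.

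Other genes of these pathways, from lists made with earlier results of these data known, are read in DKO livers against the 13.8% of all genes lower and 12.6% higher than in WT at 9 days. Of 22 other liver complement genes 11 fell and 1, Clu, rose (log2 1.31, SE 0.23). Vtn, the vitronectin gene, fell by 1.57 (SE 0.20) and Crp fell by 1.88 (SE 0.40). Of 23 tested coagulation genes outside the 37, 10 fell and 2 rose. Ggcx, the carboxylase on which the vitamin K-dependent proteins rely, fell by 1.32 (SE 0.23), and Lman1 and Mcfd2, the cargo receptor of factors V and VIII, fell by 0.97 (SE 0.18) and 0.93 (SE 0.18). Of 11 tested genes of fibrinolysis and its cell-surface receptors 7 rose and none fell. Plat, the tissue plasminogen activator gene, rose by 3.78 (SE 0.72). Of 16 complement receptors and regulators 4 rose, Itgam, Itgax, Itgb2 and Cd93, which leukocytes and endothelial cells express, and Cd59a fell. Of 24 tested liver transcription factors and cytokine receptors 9 fell and 2 rose. The bile acid receptor gene Nr1h4 fell by 3.27 (SE 0.32, adjusted p = 0.000112), the interleukin-6 receptor gene Il6ra fell by 2.71 (SE 0.70, adjusted p = 0.0169) and Cebpa fell by 1.31 (SE 0.43, adjusted p = 0.0453).

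In tumours, where 16.1% of all genes were lower and 20.5% higher than in WT livers, 7 of 12 fibrinolysis genes rose and none fell, Plat by 8.67 (SE 0.68). Of 22 other liver complement genes 11 fell and Clu rose. Serping1, the C1 inhibitor gene, fell by 1.99 (SE 0.18). Of 24 other coagulation genes 7 fell and 4 rose, the latter a smaller share than among all genes. The 4 include Procr, the receptor of protein C (4.12, SE 0.55), and F13a1, the catalytic subunit of factor XIII (2.95, SE 0.66). Among the complement receptors and regulators, Cd55, which dismantles C3 convertases on cells, fell by 3.92 (SE 0.52). Others in that list lay on either side of the vehicle WT livers. Itgax was at 6.92 and 5.154 CPM in tumours and at 0.9591 to 3.597 CPM in vehicle WT livers. Vsig4 was at 3.063 and 5.003 CPM against 9.398 to 83.5 CPM. Of 24 tested liver regulators 10 fell and 1 rose.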

How the data were processed

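Whole-number counts of reads per gene were deposited by the authors for the 16 libraries. Per the submitters' processing notes, fastp, STAR 2.7.3 and featureCounts were used with GRCm38.p6. No annotation release or strand setting is stated in the sources used here. A second deposited table of normalized values was not used. The members, lists and tests were chosen with earlier results of these data known; by rule, all 37 members may be named, and of other lists the called genes. Groups follow the labels. A joint fit of the 14 livers used edgeR 4.0.16 under R 4.3.3 (filterByExpr, TMM, quasi-likelihood F test, 1 mean per group, 7 residual degrees of freedom). Tumours were compared in a fit of all 16 libraries, with the mean of 9-day and 30-day vehicle livers as the reference. Adjusted p-values are Benjamini-Hochberg over all genes tested, called under 0.05, and SE is the absolute log2 fold change over the square root of F. P-values set a group difference against the spread between libraries within groups, estimated over all groups of the fit. The fit was tested on simulated counts for DKO against WT (17831 genes, 3 draws). It called 6.77%, 48.9% and 73.6% of genes changed 2-, 4- and 8-fold, with 12 false among 260 calls. A far smaller share of genes was changed there than the 26.4% called in the data. The adjusted p depends on that share, so these rates do not carry over to the real comparison. A count of 3 is 0.0481 to 0.363 CPM, and intervals from counts cover counting error only. Positions are from GENCODE M21, promoters from RefSeq. Alternatives were DESeq2 1.42.0, RLE scaling, omission of the low-count filter, a replicate block, fits of only the libraries compared, 9-day or 30-day reference livers, each library left out and, added after seeing the data, scaling on total counts. Some genes of the lists and some promoters are not reported here.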

Additional observations from a re-analysis of the deposited data

How the results depend on the processing

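With 2 libraries a group, small changes are seldom called, and 1 library can decide a call. With each library left out in turn, the number of the 37 genes called ran from 18 to 21 in DKO against WT, 20 to 26 in DKO against KO, 17 to 23 in tumour against WT, 15 to 27 in tumour against KO (15 without tumour replicate 1), 0 to 1 for the agonist in KO, 0 to 2 for KO against WT under agonist, and was 0 in every other comparison. Without the low-count filter, edgeR called 3 genes in KO against WT at 9 days, 6 for the agonist in KO, 9 in KO against WT under agonist, 3 in the genotype by agonist test, 2 in the genotype by time test, 1 from 9 to 30 days in WT and 3 in KO, where that fit called 3%, 3.99%, 7.28%, 1.45%, 0.445%, 2.77% and 2.08% of 33901 genes. DESeq2 called 4, 5, 6 and 2 in the first 4 of these and 1 from 9 to 30 days in KO, where it called 1.44%, 1.88%, 5.37%, 0.372% and 0.301%. The agonist in KO gave 3 calls with the replicate block (1.16% of all genes) and 0 with only the libraries compared. The correlation of deviations between same-numbered libraries ran from -0.0779 to 0.366 over 21 pairs of groups. Its median was 0.101, and 11 pairs were over 0.1. The labels do not say that a number marks a shared animal, litter or day, so the main fit used no block. Whether same-numbered libraries share a batch was not tested. With the replicate block, DKO against WT gave 23 calls in place of 22, where 30% of all genes were called in place of 26.4%. Scaling on total counts shifted the median of all genes in DKO against WT by 0.42 and left 22 calls, 20 lower and 2 higher, with Kng1 also higher. That scaling moves all genes by nearly the same amount, so estimates just below 0 must change sign, as did those of F2 (0.0058), F7 (0.37), Pros1 (0.36), Fgb (0.23), Serpinf2 (0.16), Masp1 (0.24) and Cfi (0.0501). With each library left out, F7 ran from -0.47 to 0.26, Masp1 from -0.56 to 0.0942 and Kng2 from -0.0245 to 0.195. The cause of the other differences was not tested; leaving out libraries and fitting only those compared reduce the samples by construction.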
